A study of Homo sapiens with 18 samples.

Results

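Peaks of the leukaemia fusion protein AML1-ETO were examined at 10 genes of the BCL2 family, which decide whether a cell lives or dies by way of its mitochondria. A peak was counted for a gene if at least 1 bp of it lay inside the gene or in the 10 kb on either side, by the GRCh38 RefSeq annotation. The 10 genes are pro- and anti-survival members of the family, out of the 20037 protein-coding genes on chromosomes 1 to 22, X and Y. Joining the overlapping peaks of the 4 single-antibody lists gave 39 regions near these genes, of 35622 regions in all.

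Binding was profiled by CUT&RUN, in which a nuclease tethered to an antibody cuts out the DNA around the antibody's target, and the cut fragments are sequenced. The cells were Kasumi-1, an established human acute myeloid leukaemia line with t(8;21), the translocation that fuses RUNX1 (AML1) to RUNX1T1 (ETO). All cells carried Flag-tagged AML1-ETO. The labels do not say how the tag was introduced or whether the line is 1 clone. In every group the cells had been transduced, and viable GFP+ cells were sorted 3 days later. Control and miR-130a knockdown (KD) cells were each profiled with anti-ETO, anti-Flag and mouse IgG, with 3 libraries in each of the 6 groups. The labels do not describe the control vector, nor whether the 3 libraries came from separate cultures.

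Each deposited list is a set of positions without height, score or library, so the depth behind a call is unknown and no spread between libraries could be computed. A peak present in one list and not in another is therefore a difference between lists, with no replicate check. No IgG list was used here. The control anti-ETO list was the shortest with 14264 peaks, against 22594 in knockdown anti-ETO, 23162 in control anti-Flag and 25961 in knockdown anti-Flag. The authors also made lists of sites called by both antibodies (dual-antibody peaks) in each condition, and split these into peaks shared by both conditions, unique to control (control-unique) and unique to knockdown (knockdown-unique).

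As background, BCL2 family proteins meet at the outer mitochondrial membrane. Pro-survival guards such as BCL2, BCL2L1 (BCL-XL), MCL1 and BCL2A1 (BFL1) bind and restrain the effectors BAX and BAK1, which otherwise form pores that release cytochrome c and start the caspase cascade. BH3-only proteins such as BCL2L11 (BIM), BBC3 (PUMA), PMAIP1 (NOXA) and BID sense stress and engage the guards or the effectors. Leukaemia cells often depend on these guards, and BCL2 is the target of the drug venetoclax used in acute myeloid leukaemia.

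The 4 promoters below show the range of calls seen at the gene starts, from a promoter overlapped by peaks of all 4 lists to a gene without any peak. Each run gives the 250 bases before the listed start from RefSeq on GRCh38.p14, written 5′ to 3′ on the strand of the gene. Capitals mark bases that lay inside both a control anti-ETO and a control anti-Flag peak. The stretches are chr2:111120664-111120913 (+) for BCL2L11, chr19:48954625-48954874 (+) for BAX, chr18:59899746-59899995 (+) for PMAIP1 and chr15:79971197-79971446 (-) for BCL2A1.
BCL2L11: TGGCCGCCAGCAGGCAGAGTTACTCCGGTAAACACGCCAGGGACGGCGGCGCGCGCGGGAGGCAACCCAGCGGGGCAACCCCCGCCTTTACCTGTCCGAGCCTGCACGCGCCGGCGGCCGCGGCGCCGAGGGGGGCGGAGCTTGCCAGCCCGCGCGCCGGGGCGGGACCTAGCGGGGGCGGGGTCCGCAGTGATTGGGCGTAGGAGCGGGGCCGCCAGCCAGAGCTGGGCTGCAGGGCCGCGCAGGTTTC
BAX: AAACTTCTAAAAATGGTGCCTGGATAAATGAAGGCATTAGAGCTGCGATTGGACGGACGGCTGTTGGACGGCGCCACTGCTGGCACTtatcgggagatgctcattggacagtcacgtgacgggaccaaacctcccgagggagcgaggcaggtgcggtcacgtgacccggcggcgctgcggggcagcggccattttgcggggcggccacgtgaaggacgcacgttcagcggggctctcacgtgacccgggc
PMAIP1: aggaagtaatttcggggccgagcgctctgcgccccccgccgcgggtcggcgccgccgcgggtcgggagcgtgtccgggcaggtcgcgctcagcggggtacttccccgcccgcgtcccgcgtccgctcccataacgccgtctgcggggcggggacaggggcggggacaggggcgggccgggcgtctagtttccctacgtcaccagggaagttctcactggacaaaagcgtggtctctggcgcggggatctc
BCL2A1: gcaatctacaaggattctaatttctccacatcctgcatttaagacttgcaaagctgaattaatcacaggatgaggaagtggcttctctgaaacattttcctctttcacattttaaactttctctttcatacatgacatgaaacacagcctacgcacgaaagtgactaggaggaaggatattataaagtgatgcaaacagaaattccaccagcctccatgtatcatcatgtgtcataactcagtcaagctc

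All 250 bases at BCL2L11 lay inside control peaks of both antibodies, and 88 of them lay inside a knockdown anti-Flag peak. At BAX, 250 bases lay inside the anti-ETO peaks of both conditions, but only the first 87 were also called by control anti-Flag and 0 by knockdown anti-Flag. At PMAIP1 only anti-ETO called the promoter, over 53 bases in control and 250 in knockdown. BCL2A1 had no call. The GC content of the printed stretches was 76.8% for BCL2L11, 62.8% for BAX, 72.8% for PMAIP1 and 38.8% for BCL2A1.

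Across the 10 genes, 9 had a peak in at least 1 single-antibody list, compared with 58.2% of all protein-coding genes. The control anti-ETO list held a peak for 9 genes (background 47.4%) and the knockdown anti-ETO list for the same 9 (53.6%). The control anti-Flag list held a peak for 8 genes (50.01%) and the knockdown anti-Flag list for 6 (42.1%). BCL2, BAX, BAK1, BCL2L11, BBC3 and BID had a peak in each of the 4 lists, as did 37.2% of protein-coding genes. All 6 also had at least 1 region called in all 4 lists, against 35.1%. Dual-antibody peaks were found at 8 genes in control (43.7%) and at 6 in knockdown (39.3%).

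The shared list held 10 peaks at the same 6 genes, against a background of 35.0% of genes with a shared peak. Control-unique peaks lay at BCL2L1, MCL1 and BAX, 1 each (3 of 10 genes, background 16.9%). Knockdown-unique peaks lay at BBC3 (2 peaks) and BID (1 peak), so 2 of 10 genes had one (18.4%). The count for knockdown-unique peaks was thus near the background share.

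**Figure D1:**
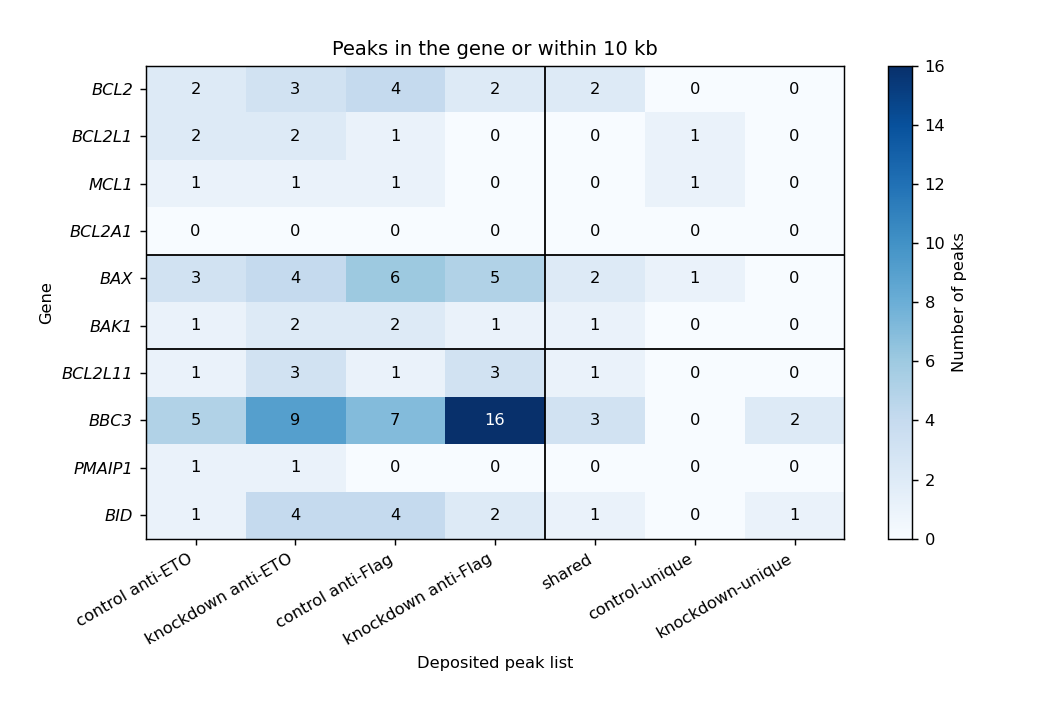
Number of deposited peaks in each gene or within 10 kb (rows, grouped as pro-survival guards, effectors and BH3-only genes) in the 4 single-antibody and 3 derived lists (columns). In the 4 single-antibody lists BBC3 held the most peaks, from 5 in control anti-ETO to 16 in knockdown anti-Flag, while in the control-unique list it held 0, and BCL2A1 held 0 in every list shown.

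The number of anti-ETO peaks was higher in knockdown than in control at 6 genes (BCL2, BAX, BAK1, BCL2L11, BBC3 and BID; background 32.3%) and lower at 0 (5.03%). The number of anti-Flag peaks was higher in knockdown at BBC3 and BCL2L11 (2 genes, 18.6%) and lower at 6 genes (21.7%). These shares, here and below, include genes without a peak in any list, which cannot differ. Of the 11668 protein-coding genes with a peak, 6470 had more anti-ETO peaks and 4350 fewer anti-Flag peaks in knockdown. Of the 9 BCL2 family genes with a peak, 6 and 6 did. Summed over the 10 genes, anti-ETO gave 17 peaks in control and 29 in knockdown, a ratio of 1.71 beside 1.58 for the whole lists. Anti-Flag gave 26 and 29 peaks, a ratio of 1.12 that equals that of the whole lists. BBC3 alone set the direction of the anti-Flag sum, which was 19 in control and 13 in knockdown without it (ratio 0.684). The anti-ETO sum without BBC3 was 12 and 20 (ratio 1.67).

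The anti-ETO difference in peak number was small once the lists were equally long. After each was shortened by width to 14264 peaks, anti-ETO gave 17 peaks in control and 18 in knockdown (ratio 1.06), and anti-Flag gave 16 and 17 (1.06). The number of anti-ETO peaks was then higher in knockdown at BCL2, BAK1, BCL2L11 and BBC3 (4 genes, background 14.7%) and lower at BCL2L1 and BID (2 genes, 15.8%). Every knockdown anti-ETO peak at BCL2L1 and BID was narrower than 381 bp, while control peaks of 187 and 207 bp at BCL2L1 were kept. The lower count at BCL2L1 thus follows from the unequal width limit. The control peak at BID, of 541 bp, was wider than 381 bp, so BID would also be lower with that limit in both lists. For anti-Flag it was higher at BAX, BBC3 and BCL2L11 (3 genes, 12.4%) and lower at BCL2, MCL1 and BID (3 genes, 19.1%).

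Peak number also depends on how a bound stretch is split into calls, so the length covered by peaks was compared as well. Anti-ETO peaks covered more length in knockdown at 8 of the 10 genes (47.2% of protein-coding genes) and less at BCL2L1 (8.01%). Anti-Flag peaks covered less length in knockdown at 6 genes (34.9%) and more at BAX and BBC3 (17.4%). BCL2, MCL1, BAK1, BCL2L11 and BID combined more anti-ETO with less anti-Flag length in knockdown, 5 of 10 genes beside 26.9% of all. Of the 11668 protein-coding genes with a peak in any list, 9466 had more anti-ETO length, 6998 less anti-Flag length and 5387 both. Of the 9 BCL2 family genes with a peak, 8, 6 and 5 did. Summed over the genes, anti-ETO peaks covered 13332 bp in control against 23533 bp in knockdown (ratio 1.77, whole lists 1.67). Anti-Flag peaks covered 19869 bp in control against 16915 bp in knockdown (ratio 0.851, whole lists 0.975), and 11595 bp against 7870 bp without BBC3 (ratio 0.679). With the lists at equal length the ratio of covered length was 1.53 for anti-ETO (whole lists 1.42) and 0.805 for anti-Flag (0.912). Anti-ETO length was then higher in knockdown at 7 genes (37.3%) and lower at BCL2L1 and BID (13.7%). The same unequal width limit applied, but the control peak at BID was wider than the limit of either list. Anti-Flag length was higher at BAX and BAK1 (13.6%) and lower at 5 genes (30.2%), BBC3 among them.

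**Figure D2:**
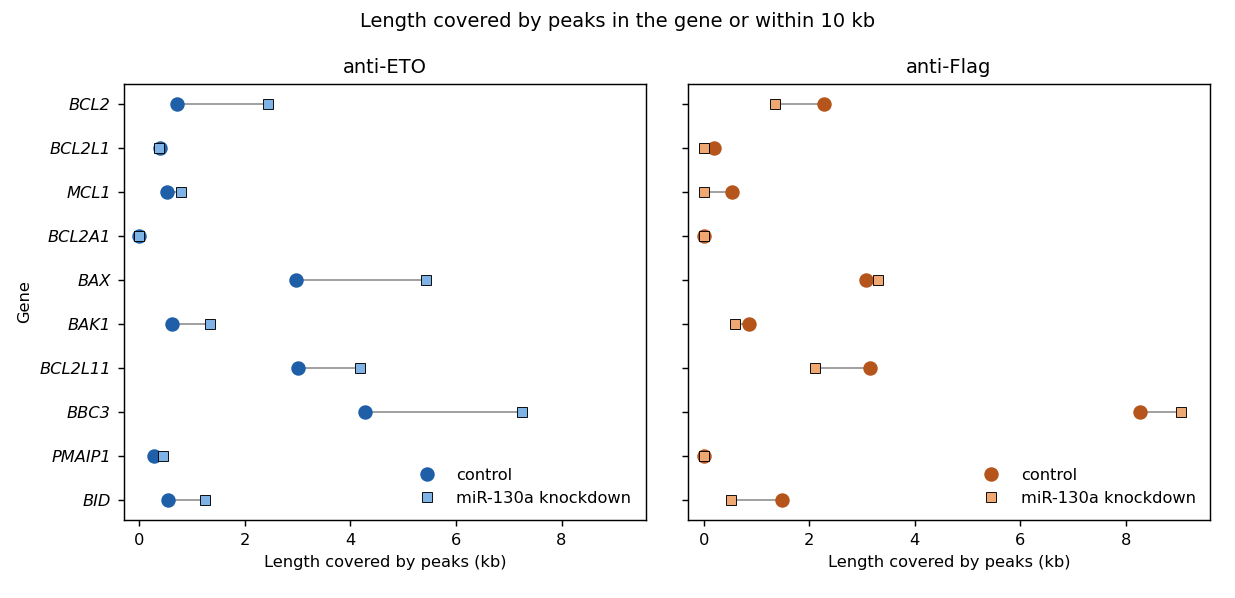
Length in kb covered by anti-ETO (left) and anti-Flag (right) peaks in each gene or within 10 kb, with a circle for control and a square for knockdown, 1 list per point. The anti-ETO squares lie to the right of the circles at 8 genes, while 6 anti-Flag squares lie to the left.

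Among the guards, BCL2 (chr18:63123346-63320090, minus strand) has a gene body of 196745 bp, yet its peaks clustered within 4 kb of the start. Control anti-ETO called 2 peaks there, knockdown anti-ETO 3, control anti-Flag 4 and knockdown anti-Flag 2. A region at chr18:63318830-63319988 covered the listed start and a second at chr18:63320206-63321362 lay upstream, at positions -1593 to -437 from the start. Both were called in all 4 lists and belong to the shared list. The anti-ETO calls were wider in knockdown, covering 717 bp in control and 2440 bp in knockdown over the whole window. Anti-Flag covered 2284 bp and 1348 bp. The other 2 regions were single calls, by control anti-Flag inside the gene (2323 bp downstream of the start) and by knockdown anti-ETO 3229 bp upstream.

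BCL2L1 (chr20:31664452-31723963, minus strand) showed narrow calls only, of 177 to 207 bp. Its control-unique peak, chr20:31723731-31723937, began 26 bp downstream of the start. It was called by anti-ETO in both conditions and by anti-Flag in control. Knockdown anti-Flag had no call in the window. A further anti-ETO peak lay 459 bp downstream in control only, and another 1070 bp downstream in knockdown only, at the second listed start. BCL2L1 was the only one of the 10 genes with less anti-ETO length in knockdown, at 394 bp in control and 370 bp in knockdown.

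MCL1 (chr1:150574558-150579610) encodes a short-lived guard. It had 1 region, at the gene end with the higher coordinate. Control anti-ETO called 525 bp and control anti-Flag 544 bp, with both peaks starting 138 to 141 bp beyond the gene. Knockdown anti-ETO called 796 bp, reaching from chr1:150579488 inside the gene to 150580283, and knockdown anti-Flag called none. The authors' control-unique peak at chr1:150579748-150580294 therefore kept its anti-ETO call and lacked the anti-Flag call. BCL2L1 and MCL1 were the 2 genes with a peak in every list but knockdown anti-Flag, which held for 6.43% of protein-coding genes.

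BCL2A1 (chr15:79960892-79971196, minus strand) encodes a guard expressed mainly in blood cells. It was the only gene of the 10 without a peak in any list. The nearest call lay 36662 bp from the gene in control anti-ETO and 37178 bp away in knockdown anti-Flag. A gene without any of the 4 lists within 10 kb was common, at 41.8% of protein-coding genes.

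Of the effectors, BAX (chr19:48954875-48961798, plus strand) had 3 control and 4 knockdown anti-ETO peaks, and 6 control and 5 knockdown anti-Flag peaks. At its start, control anti-ETO called chr19:48954533-48955045 and knockdown anti-ETO called 48954460 to 48955165. Control anti-Flag called a narrow peak, chr19:48954490-48954711, at the upstream edge, and knockdown anti-Flag called none. The authors' lists accordingly hold a control-unique peak of 556 bp at the BAX start. The other calls lay towards and beyond the end of the gene. A region of 942 bp crossed the gene end and one of 3727 bp lay 1697 bp beyond it, both called in all 4 lists. The second covered the listed start of the neighbour FTL, which encodes the ferritin light chain, so it cannot be assigned to BAX by position. The region of 942 bp also lay nearer to the FTL start, at 2579 bp, than to the BAX start, at 6914 bp. For the regions further out FTL was the nearest listed start too, at 2080 and 5895 bp. These downstream calls made up most of the difference in anti-ETO length, 2970 bp in control against 5436 bp in knockdown.

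BAK1 (chr6:33572552-33580276, minus strand) had its region called in all 4 lists beyond the gene end, at chr6:33570798-33571625 and 8651 bp from the start. No list called the promoter. A second call, by control anti-Flag alone, lay beside it, and knockdown anti-ETO alone called a peak of 523 bp inside the gene, 1215 bp downstream of the start.

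Of the BH3-only genes, BCL2L11 (chr2:111120914-111168445, plus strand) carried 1 wide domain over its start, at chr2:111119982-111123365 (3384 bp). The domain was a single peak of 3013 bp in control anti-ETO, 3353 bp in knockdown anti-ETO and 3150 bp in control anti-Flag. In knockdown anti-Flag the same domain was split into 3 peaks of 620, 976 and 517 bp, and the start itself lay in the gap between the first and the second, 21 bp before the second. Knockdown anti-ETO added 2 peaks 1439 and 2273 bp upstream of the start. The higher anti-Flag count in knockdown (3 against 1) thus came with less length, 2113 bp against 3150 bp.

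BBC3 (chr19:47220824-47232860, minus strand), whose product binds the guards, held 13 of the 39 regions (33.3%). That is 40.6 regions per 100 kb of window, and at least as many were counted for 3.03% of protein-coding genes. It was also the only gene of the 10 with 10 or more regions (background 5.67%). Control anti-ETO called 5 peaks, all inside the gene, and knockdown anti-ETO called 9. A further control anti-ETO peak lay just outside the window, 10148 bp from the gene. It fell in the same region as a counted knockdown anti-ETO peak, which began 9489 bp from the gene. Control anti-Flag called 7 peaks and knockdown anti-Flag 16. The covered lengths differed less, at 4274 bp and 7258 bp for anti-ETO and at 8274 bp and 9045 bp for anti-Flag.

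At the listed start of BBC3, control anti-Flag called 1 peak of 4578 bp, chr19:47228343-47232920, that ran from the start into the gene. Control anti-ETO called only parts of this stretch, the nearest 1092 bp downstream of the start. In knockdown, anti-ETO called the start itself with a peak of 589 bp (chr19:47232439-47233027), and anti-Flag called it with a peak of 1116 bp. Because the control dual-antibody interval takes in the whole wide anti-Flag peak, the start counts as shared in the authors' lists. The 2 knockdown-unique peaks lay elsewhere, at chr19:47224179-47224618 inside the gene and at chr19:47240906-47241190, 8046 bp beyond it. No control list called either. The second lay nearer to the listed start of the neighbour LOC124904731, at 3005 bp. A region called by knockdown anti-Flag alone lay 2159 bp from that start. The region called in all 4 lists at chr19:47242265-47244939 covered it. These regions therefore cannot be assigned to BBC3 by position. Of the 13 regions, 5 were called by knockdown anti-Flag alone, including the one 2159 bp from the LOC124904731 start.

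PMAIP1 (chr18:59899996-59904305, plus strand) was called by anti-ETO only. The control peak was chr18:59899522-59899798, which ended before the start, and the knockdown peak was chr18:59899693-59900145, which covered it. A gene called by anti-ETO in both conditions and by anti-Flag in neither was found for 1.43% of protein-coding genes.

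BID (chr22:17734138-17774665, minus strand) links death receptors to the mitochondria. Its shared peak, chr22:17773531-17774071, overlapped 2 of its 5 listed promoter windows and was called in all 4 lists. The knockdown-unique peak, chr22:17773037-17773368, lay on its downstream side, 1297 to 1628 bp from the most upstream start. The remaining 4 regions had different lists, namely 2 with control anti-Flag alone, 1 with knockdown anti-ETO alone and 1 with both of these. Anti-ETO covered 541 bp in control and 1251 bp in knockdown, and anti-Flag covered 1482 bp and 513 bp.

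**Figure D3:**
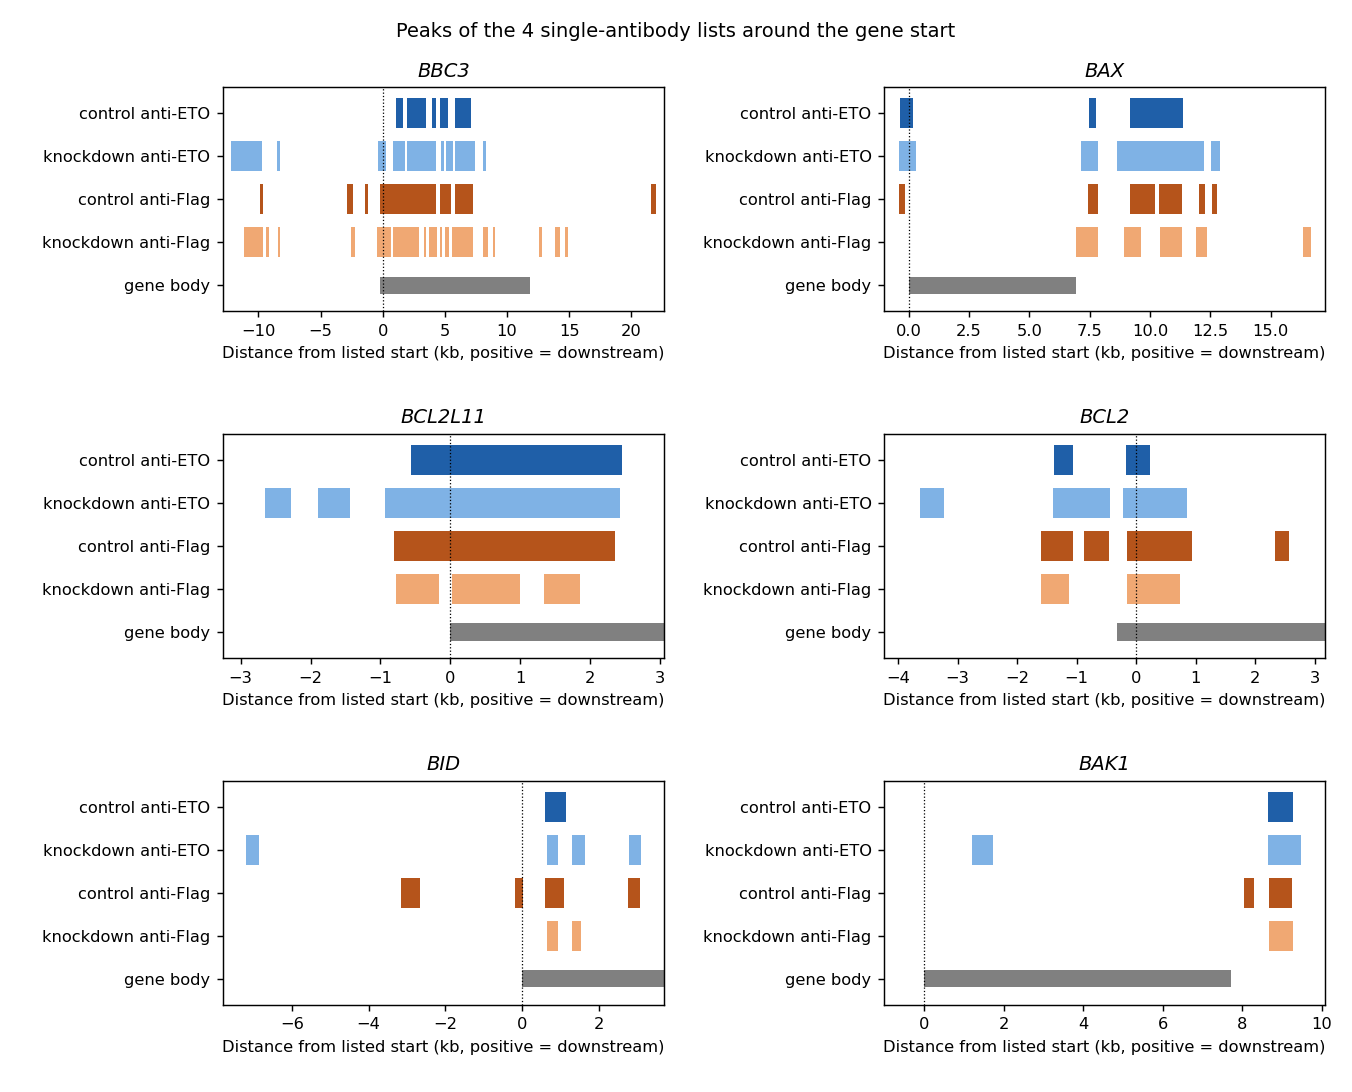
Peaks of the 4 single-antibody lists (coloured bars, 1 row per list) against distance in kb from the most upstream listed start of 6 genes, with the gene body in grey where it falls in view. At BCL2 all 4 lists call the start and at BCL2L11 3 do, with knockdown anti-Flag on both sides of it, while most of the calls at BAK1 and BAX lie near or beyond the gene end and 1 knockdown anti-ETO peak lies inside BAK1.

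Of the 39 regions, 10 were called in all 4 lists (25.6%, against 24.8% of all regions). Single calls by knockdown anti-Flag, knockdown anti-ETO and control anti-Flag made up 6 regions each (15.4%), beside 22.3%, 10.3% and 10.2% of all regions. The share called in all 4 lists was thus near that of all regions. Control lists alone called 7 regions (17.9%, against 13.4% of all regions) and knockdown lists alone called 15 (38.5%, against 37.8%), so the excess of knockdown-only regions was also that of the whole lists. The gene body was touched by 19 regions and 20 lay in the flanks. Regions called in all 4 lists had a median width of 1917 bp near these genes and 1056 bp among all such regions, but the median without BBC3 was 1157 bp. The density was 6.60 regions per 100 kb of window near the 10 genes and 2.08 over the joined windows of all protein-coding genes (4.65 near the 9 genes without BBC3), with BBC3 and BAX the most dense.

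Promoter windows, from 250 bp before to 50 bp after a listed start, were matched for 9 of the 10 genes (14 windows), all but MCL1. A control anti-ETO peak overlapped a window of 6 genes (32.5% of 15843 protein-coding genes with a window) and a knockdown anti-ETO peak a window of 7 (38.7%). Control anti-Flag did so for 6 genes (32.3%) and knockdown anti-Flag for 4 (23.8%). All 4 lists called a window of BCL2, BCL2L11 and BID (3 of 9, background 20.8%). BBC3 lacked only control anti-ETO, while BAX and BCL2L1 lacked only knockdown anti-Flag.

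The GC content of the windows ranged from 41.0% at BCL2A1 to 78.0% at one start of BID. BCL2A1 and BAK1 (58.7%) were the 2 genes with no call on a window. Over all 35116 listed windows the median GC was 53.3% for those with no call and 68.5% for those called in all 4 lists. BBC3, with 48.0% GC, and the upstream BCL2L1 window, with 52.0%, each had 3 lists on the window and depart from that relation, and a BID window of 48.7% GC had 1. Whether GC content contributes to calls here was not tested.

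Core motifs of blood transcription factors were searched on both strands of the 14 windows. The RUNX core TGTGGT was present in 2 windows (13.1% of all windows) and its variant TGCGGT in 1 (7.29%). The BCL2 match lay 13 bases after the start on the opposite strand, inside peaks of all 4 lists. The BCL2L1 match, at position -233, lay in no peak. The BAX match to TGCGGT, at bases 152 to 157 of the printed promoter, lay inside the anti-ETO peaks of both conditions and outside the anti-Flag call. It overlapped an E-box match (CANNTG) at bases 148 to 153. The ETS core GGAAGT was found in 5 windows (22.8%), with 3 matches at PMAIP1. An AP-1 match (TGANTCA) was found in 1 window, that of BBC3 (7.71%), the GATA core AGATAA in 0 (10.3%) and the E-box in 6 (68.7%). Windows of BID overlap, and the same E-box at chr22:17774084-17774089 was counted in 2 of them. A match describes letters only and does not show that a factor binds.

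The wider families were taken from lists of 13 other BCL2 family genes and 29 genes of apoptosis signalling. A control anti-ETO peak was found at 7 of the 13 other family genes (53.8%) and at 23 of the 29 pathway genes (79.3%), against 47.4% of all protein-coding genes. For knockdown anti-ETO the counts were 9 and 23 (background 53.6%), for control anti-Flag 7 and 26 (50.01%), and for knockdown anti-Flag 8 and 17 (42.1%). Shared peaks were found at 6 and 14 genes (35.0%). Among the other family genes, BCL2L12, BCL2L2 and BIK had a control-unique peak, and BAD and BCL2L13 a knockdown-unique one. Pathway genes with a control-unique peak included AIFM1, BIRC2, BIRC3, CASP9, DIABLO, ENDOG, FOXO3, TNFRSF10A, TNFRSF10B, TNFRSF1A and XIAP, and those with a knockdown-unique one included FADD and USP9X. The same 4 counts as at MCL1 were found at CASP8, but 579 other protein-coding genes had them too, CASP8 included. Those of BAK1 were found at MDM2, among 114 other protein-coding genes. No other protein-coding gene had the counts of BBC3.

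**Figure D4:**
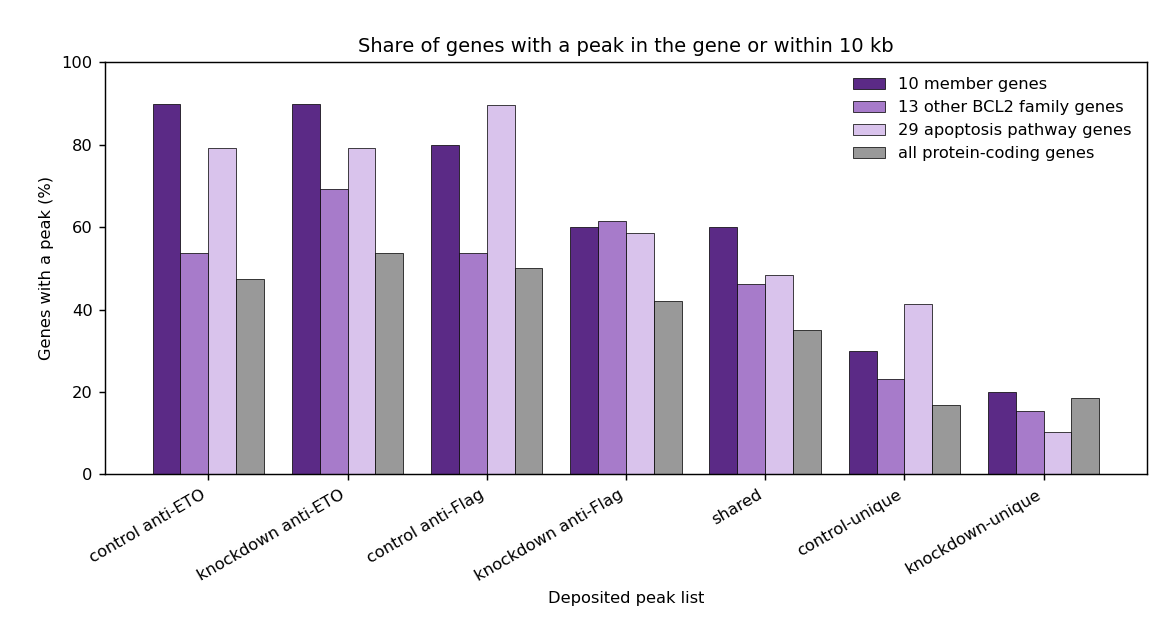
Percent of genes with a peak in the gene or within 10 kb (y axis) by deposited list (x axis) for the 10 BCL2 family genes, 13 further family genes, 29 apoptosis genes and all protein-coding genes. The 10 genes reach 90.0% in both anti-ETO lists, against 47.4% and 53.6% of all protein-coding genes.

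The 10 kb limit matters most at BBC3, where the outermost control anti-Flag peak counted lay 9764 bp from the gene and the nearest one left out lay 10080 bp away. For anti-ETO, a knockdown peak at 9489 bp was counted and a control peak at 10148 bp was left out. Both lay in 1 region called in all 4 lists. List length also bears on single calls. With all 4 lists at equal length, BCL2L1 and BID had no knockdown anti-ETO peak left, all being narrower than 381 bp. The control anti-Flag peaks at the starts of BAX and BCL2L1 were not kept. MCL1 still had 1 peak in each list but knockdown anti-Flag, and BBC3 had 5 control and 6 knockdown anti-ETO peaks. The 6 include the peak at 9489 bp, so the higher BBC3 count in knockdown rests on the window edge.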

How the data were processed

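The 18 CUT&RUN libraries were grouped by the sample titles, with 200000 sorted cells per condition, fragments of 150 to 400 bp and paired reads of 75 bp at a planned 40 M reads, per the labels' protocols. The submitters' processing notes name fastp 0.19.5, Bowtie2 2.3.5, MACS2 2.2.5, HOMER 4.8 and the builds hg38 and sacCer3, without their roles. Thresholds, use of IgG and handling of replicates are not given in the sources used here. The 9 files deposited by the authors hold interval positions only.

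Peaks were matched to genes and promoter windows of RefSeq GRCh38.p14 with Python 3.11.15, numpy 2.4.6 and pandas 2.3.3 (figures with matplotlib 3.10.9), and overlaps of at least 1 bp were merged. Exon positions were not used here. Covered length is clipped to the window of the gene plus 10 kb. Counting was tested on simulated intervals. No value per library exists, so no significance test was made, and counts stand beside the share of all protein-coding genes. All 10 genes are named. Other genes are named if they have a condition-unique peak or the same 4 counts as one of the 10, except that some are not reported here. The genes, lists and rules were chosen with earlier results of these data known. Alternatives were flanks of 0, 5 and 50 kb, peak centres, the wider 50% of each list, equal list lengths and merging at 100 bp.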

Additional observations from a re-analysis of the deposited data

How the results depend on the processing

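The number of the 10 genes with a peak stayed within 1.5 times the reported count for 5 of the 7 lists under every alternative run. For control anti-Flag it was 5 with the gene body only, against 8, and for knockdown-unique peaks it was 0 with the wider 50% of each list, against 2. The number of merged regions, 39, was 19 with the gene body only, 71 with a flank of 50 kb, 18 with the wider 50% of each list and 23 with the 4 lists at the length of the shortest. The number of regions called in all 4 lists, 10, was 6 with the gene body only, 19 with 50 kb and 6 with the wider 50%. A wider window or a longer list holds more peaks by construction. No paired analysis was possible because the lists carry no library or replicate, and for the same reason no replicate could be left out. Depth is unknown, so a missing call cannot be told apart from a call just under the authors' threshold. Leaving out BBC3, the comparison of conditions at equal list length, the alternative flanks for regions called in all 4 lists and the counts of peaks were chosen after seeing the data.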

Other observations

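Among the other BCL2 family genes, BAD, a BH3-only gene, had the most peaks in knockdown. It had 5 control and 9 knockdown anti-ETO peaks and 10 control and 14 knockdown anti-Flag peaks, with 4 knockdown-unique peaks. It was the only gene of those 13 with 10 or more merged regions. BMF, HRK, BCL2L10 and BCL2L14 had no peak in any single-antibody list.

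Genes of the inhibitor of apoptosis family were picked out after their values were seen. XIAP had 2 control and 2 knockdown anti-ETO peaks, 2 control and 0 knockdown anti-Flag peaks, and 2 control-unique peaks. BIRC2 had 1 anti-ETO peak in each condition, 2 control and 0 knockdown anti-Flag peaks. BIRC3 had 1 anti-ETO peak in each condition, 3 control and 0 knockdown anti-Flag peaks. These 3 genes, AIFM1 and CASP8 were the 5 of 29 apoptosis genes (17.2%) with a peak in every single-antibody list but knockdown anti-Flag, against 6.43% of protein-coding genes. A peak within 10 kb of 2 genes counts for each of them, and whether any of these 5 genes share a peak was not examined. BIRC5 (survivin) differed, with 1 control and 3 knockdown anti-Flag peaks and a shared peak.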
